A study of Mus musculus with 6 samples.

Results

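Matrix metalloproteinases and their inhibitors were examined in the choroid plexus, the vascular and epithelial tissue of the brain ventricles that makes cerebrospinal fluid. A fixed list of 10 genes was taken. It held the secreted gelatinases Mmp2 and Mmp9, the membrane-type enzymes Mmp14, Mmp15 and Mmp16, the tissue inhibitors Timp1, Timp2, Timp3 and Timp4, and the membrane-anchored inhibitor Reck. Members were the probe sets whose only gene symbol in the platform annotation was on that list, which gave 25 of the 45037 non-control probe sets. These 25 stood for 9 of the 18193 genes with a probe set, and no probe set was named for Mmp15 alone.

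The data came from 6 mice, 3 aged 18 months and 3 aged 2 months. All were males of the outbred CD1 stock, without a stated treatment or genotype, and the plexuses of both lateral ventricles of 1 animal went on each array. Total RNA was amplified before hybridization to Affymetrix arrays, and the deposited values are normalized intensities, given here as log2. In this whole-tissue RNA, fewer cells of a type and less RNA per cell cannot be told apart.

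Matrix metalloproteinases are zinc enzymes that cut collagens, laminins and other matrix proteins and also shed proteins from cell surfaces. They are made as inactive proenzymes. Tissue inhibitors of metalloproteinases (TIMPs) block the active site, and pro-MMP2 is activated at the cell surface by MMP14 together with TIMP2. In the choroid plexus, gelatinases have been linked to opening of the barrier between blood and cerebrospinal fluid during inflammation, and Timp3 binds to the matrix of basement membranes such as those under plexus epithelium.

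Promoter sequences are shown for the pair of members with the smallest p-values, Timp4 and Mmp14, and for Timp2, whose level hardly moved. They are the 250 bases before the annotated start on the strand of the gene, from RefSeq (GRCm38.p6), at chr6:115252206-115252455 (minus strand), chr14:54431348-54431597 (plus strand) and chr11:118355412-118355661 (minus strand). Capitals mark GC boxes (GGGCGG) and CCAAT boxes (CCAAT), each searched on both strands.
Timp4: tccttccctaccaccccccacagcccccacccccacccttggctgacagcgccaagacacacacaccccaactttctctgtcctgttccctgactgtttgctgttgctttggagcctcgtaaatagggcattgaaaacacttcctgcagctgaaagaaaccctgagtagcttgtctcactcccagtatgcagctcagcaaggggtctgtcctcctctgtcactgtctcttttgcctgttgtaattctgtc
Mmp14: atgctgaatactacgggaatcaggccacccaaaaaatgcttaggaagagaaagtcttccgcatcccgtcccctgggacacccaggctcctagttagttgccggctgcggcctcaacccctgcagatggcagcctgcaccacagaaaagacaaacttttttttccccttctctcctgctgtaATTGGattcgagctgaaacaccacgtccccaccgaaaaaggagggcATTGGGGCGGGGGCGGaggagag
Timp2: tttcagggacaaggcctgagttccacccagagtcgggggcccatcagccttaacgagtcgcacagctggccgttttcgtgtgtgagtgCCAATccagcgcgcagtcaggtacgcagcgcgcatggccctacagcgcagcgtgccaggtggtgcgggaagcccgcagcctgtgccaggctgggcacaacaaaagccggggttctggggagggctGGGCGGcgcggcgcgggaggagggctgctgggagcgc

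The Timp4 sequence held neither motif and 2 CpG dinucleotides. The Mmp14 sequence held 2 GC boxes, 2 CCAAT boxes and 10 CpG, and 1 of its CCAAT boxes shares 1 base with a GC box. The Timp2 sequence held 1 of each box and 21 CpG. Among 27025 promoters of this length the median was 6 CpG, 32.9% held a GC box and 34.5% a CCAAT box. Promoters were found for 7 of the 10 members, of which 6 held a GC box (all but Timp4). The TATA box (TATAAA, in 13% of all promoters) and the AP-1 motif (TGANTCA, in 6.87%) were searched on both strands too and were in none of the 7 windows. A match or its lack describes these letters only.

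The first principal component of the 12681 genes tested took 28.5% of the variance and ran between 18-month replicate 3 at one extreme and 2-month replicate 2 at the other. Without these 2 mice the log2 difference between ages was 2.19 for Timp4, 0.88 for Mmp14 and 0.51 for Mmp2, and no member passed. Ttr, the transthyretin gene that defines plexus epithelium, averaged 14.30 ± 0.05 at 18 months and 14.47 ± 0.01 at 2 months (SD, n = 3 each).

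None of the members passed the test between ages. A gene was represented by its brightest probe set, and it was tested if the mean of that probe set over the 6 mice reached a log2 intensity of 4.92, which 40% of non-control probe sets did not reach. Of the members, Mmp2, Mmp14, Timp2, Timp3, Timp4 and Reck passed this filter. By limma, 0 of these 6 had an adjusted p under 0.05, and the same was true of all 12681 genes tested (0% called). Timp4, which was higher at 18 months, was the only member with an unadjusted p under 0.05, against 7.05% of all genes tested (4.02% higher and 3.03% lower). Over the 25 probe sets 1 had an unadjusted p under 0.05, against 5.68% of all probe sets, and 0 had an adjusted p under 0.05, against 0.00222%. For Timp4 and Mmp14 the values of the 18-month mice lay wholly above those of the 2-month mice, and 13.3% of all genes had separate ranges (7.06% higher and 6.25% lower). The median log2 difference of the 6 was 0.32 (18 months minus 2 months), beside 0.0032 over all genes tested. That median and the counts among these 6 that include Timp4 are descriptions, since Timp4 passed the filter only through the mice in which it was high.

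**Figure D1:**
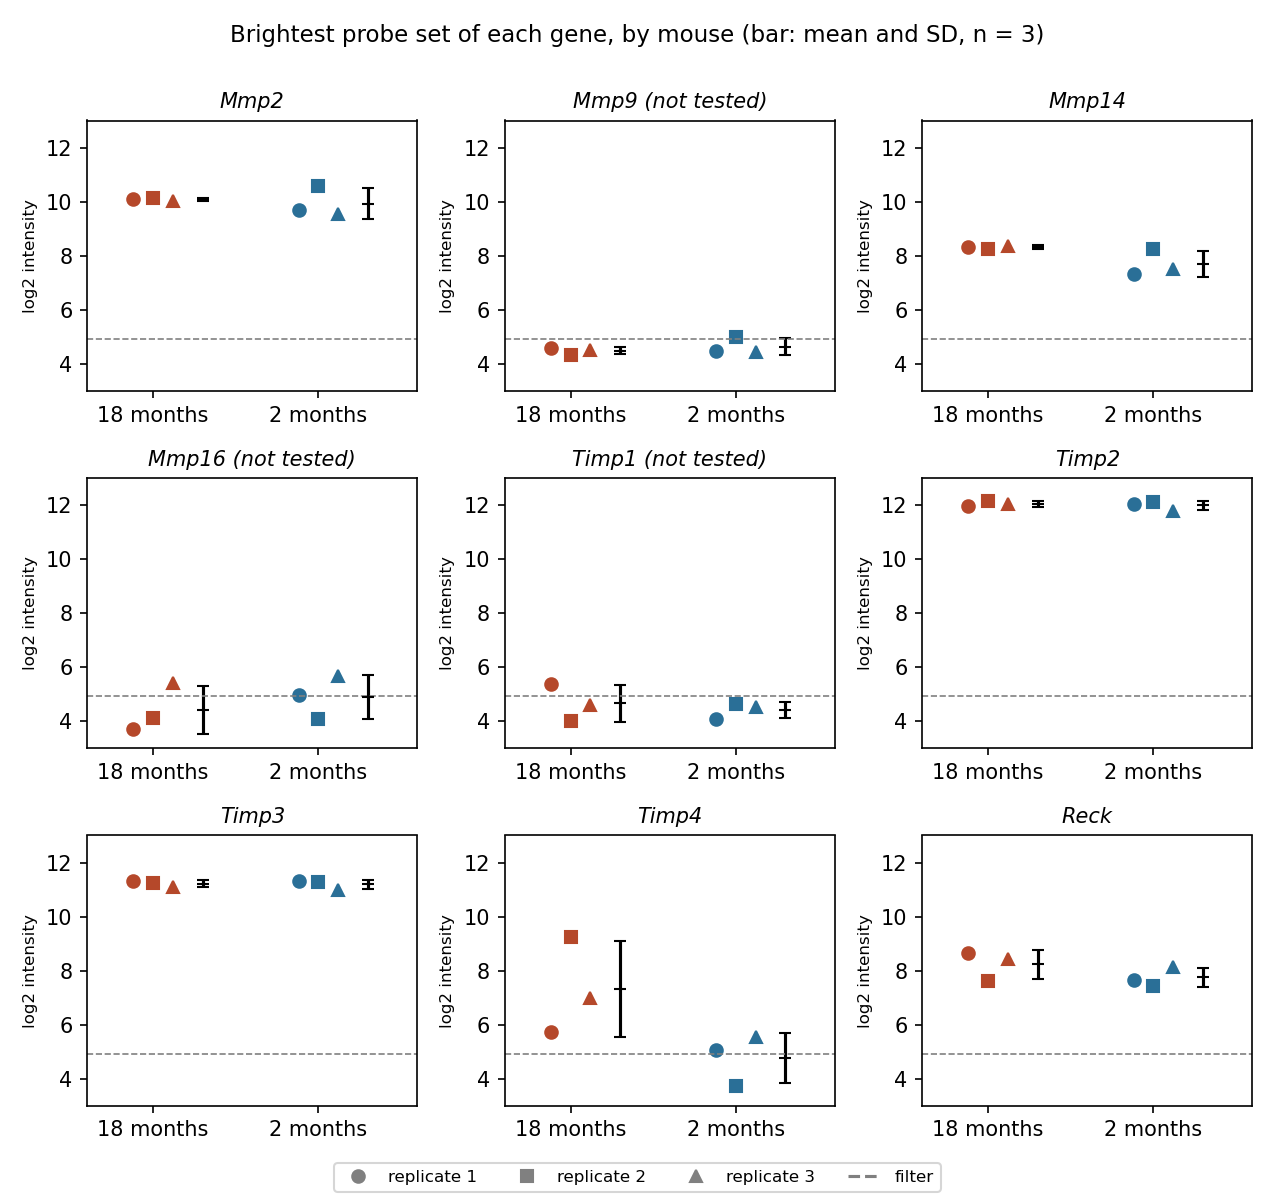
Log2 intensity (y axis) of the brightest probe set of each of the 9 genes in 3 mice at 18 months (left, red) and 3 at 2 months (right, blue); symbols mark replicates, the bar beside them the mean and SD, and the dashed line the filter at 4.92. Timp2 and Timp3 sit in narrow bands at both ages, and Timp4 spreads from 3.74 to 9.26.

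The secreted gelatinases digest type IV collagen of basement membranes and denatured collagen. Mmp2 had log2 intensities of 10.08, 10.13 and 10.01 in the 18-month mice, against 9.68, 10.58 and 9.52 in the 2-month mice. The 2-month values lay on both sides of the 18-month values, so the ages overlapped. The mean was 10.08 ± 0.06 at 18 months and 9.93 ± 0.57 at 2 months (SD, n = 3 each). The ages differed by 0.15 on the log2 scale (SE 0.30, 95% confidence interval -0.56 to 0.86, limma adjusted p = 0.937). The dimmer Mmp2 probe set gave 0.01, and in it too 2-month replicate 2 was highest, at 9.42, and 2-month replicate 3 lowest, at 8.52. Without 2-month replicate 2 the Mmp2 difference was 0.47, and without 2-month replicate 3 it was -0.054.

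Mmp9, the gelatinase that neutrophils and activated macrophages release, was dim and under the filter. Its brighter probe set had 4.60, 4.34 and 4.51 at 18 months, against 4.47, 4.99 and 4.44 at 2 months. As a gauge of background, the highest mean among 27 probe sets for bacterial transcripts was 4.51. Only 2-month replicate 2 exceeded the filter, and the gene was not tested. The other Mmp9 probe set ranged from 4.30 to 4.44 at 18 months and from 3.90 to 4.39 at 2 months. Over the same mice, the neutrophil genes S100a8 and S100a9, which encode the subunits of calprotectin, had differences of 1.56 (SE 0.54) and 1.26 (SE 0.49), with limma adjusted p = 0.672 and 0.702. S100a8 had separate ranges, while those of S100a9 overlapped. The neutrophil markers Ngp and Camp gave smaller differences, 0.48 (SE 0.28) and 0.33 (SE 0.28), also with overlapping ranges. The neutrophil markers Ltf, Csf3r, Cxcr2 and Mpo were under the filter.

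Membrane-type metalloproteinases act at the cell surface. Mmp14 encodes the enzyme that activates pro-MMP2 and cuts fibrillar collagen. It had log2 intensities of 8.32, 8.25 and 8.38 in the 18-month mice, against 7.31, 8.24 and 7.51 in the 2-month mice. The ranges were separate by a margin set by 2-month replicate 2, which lay 0.01 below the lowest 18-month mouse. The mean was 8.32 ± 0.06 at 18 months and 7.69 ± 0.49 at 2 months (SD, n = 3 each), so the ages differed by 0.63 on the log2 scale, or 1.55-fold (SE 0.27, interval -0.01 to 1.26, unadjusted p = 0.0518, limma adjusted p = 0.710). The other Mmp14 probe sets gave differences of 0.32 (SE 0.15) and 0.39 (SE 0.22). The probe set at 0.32 had 7.43, 7.39 and 7.57 at 18 months, against 7.22, 7.10 and 7.09 at 2 months, again with separate ranges. In that probe set 2-month replicate 2 was not raised, and in the third, at 6.75, it was the lowest mouse. Without 2-month replicate 2 the difference of the brightest probe set was 0.90 (limma adjusted p = 0.524).

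Mmp16, a further membrane-type enzyme found in brain, did not reach the filter with any of its 4 probe sets. The brightest had 3.73, 4.14 and 5.43 at 18 months, against 4.97, 4.07 and 5.68 at 2 months. Replicate 3 was highest at each age, and the ages overlapped. The neuron markers were also highest in those 2 mice, with a mean log2 intensity over 12 markers of 7.06, 7.75 and 8.65 at 18 months, against 7.65, 7.28 and 8.61 at 2 months. This was not particular to neurons. In 18-month replicate 3 and 2-month replicate 3 the oligodendrocyte markers (8.80 and 8.34) and astrocyte markers (9.10 and 8.83) were highest too. So were the pericyte markers (6.90 and 6.44). The part of brain tissue in the Mmp16 values was not tested.

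**Figure D2:**
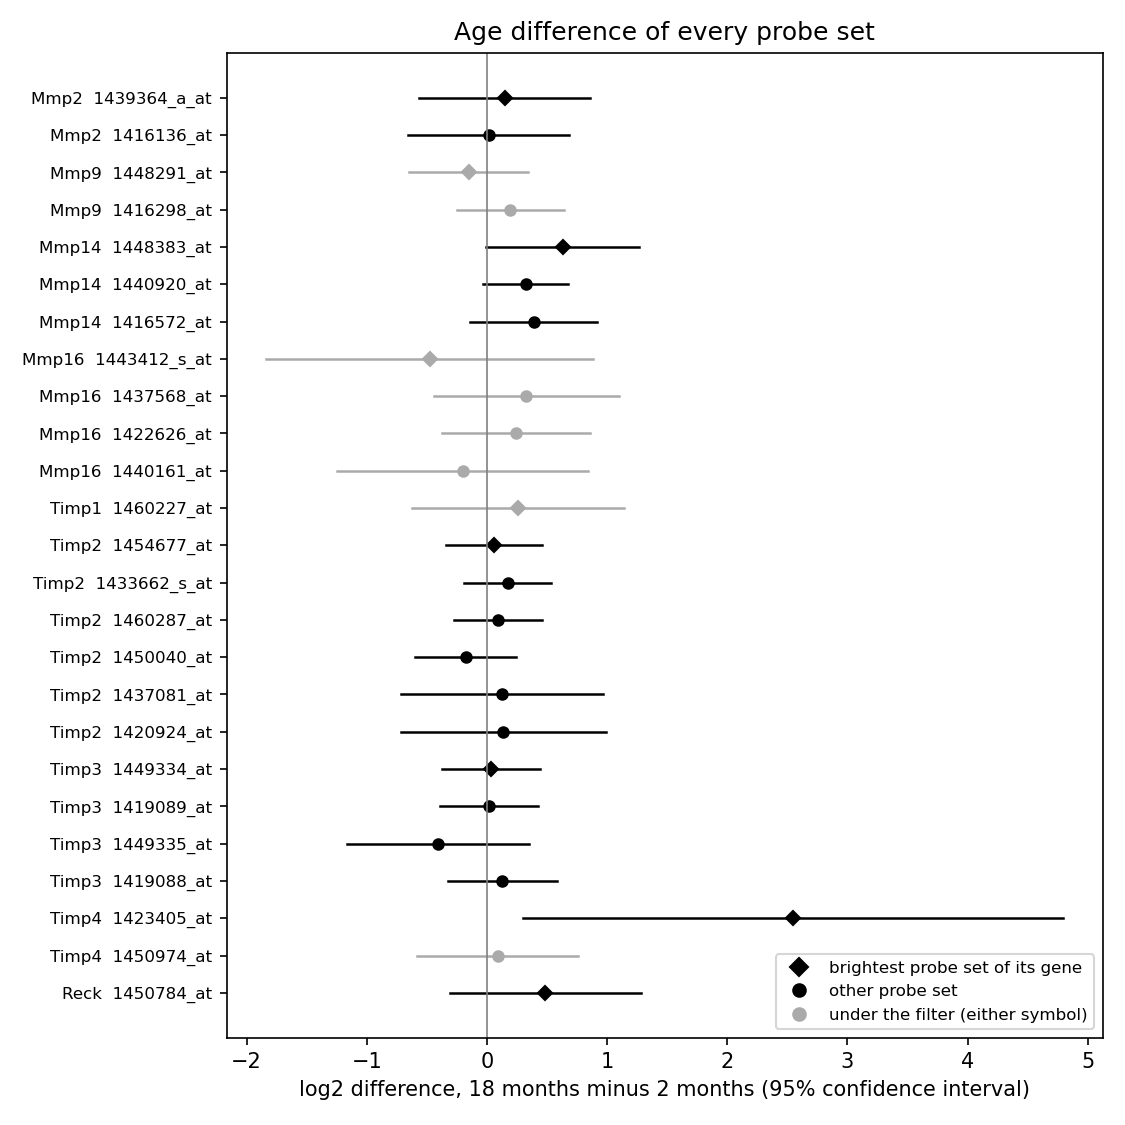
Log2 difference between ages (x axis, 18 months minus 2 months, with 95% confidence intervals from limma over all 45037 probe sets) for the 25 probe sets (y axis); diamonds mark the brightest of each gene and grey marks probe sets under the filter. All 3 Mmp14 probe sets lie above 0 with intervals that include 0, and the only interval that leaves out 0 is that of the brighter Timp4 probe set.

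The TIMPs bind metalloproteinases one to one. Timp2, which both inhibits MMP2 and takes part in its activation, was measured by 6 probe sets, all over the filter. The brightest had log2 intensities of 11.96, 12.17 and 12.02 at 18 months, against 12.05, 12.12 and 11.79 at 2 months. The mean was 12.05 ± 0.11 at 18 months and 11.99 ± 0.17 at 2 months (SD, n = 3 each), and the difference was 0.06 (SE 0.17, limma adjusted p = 0.957). Its 95% interval, -0.35 to 0.48, corresponds to 0.784-fold to 1.39-fold. The spread of Timp2 within an age was narrow, 0.14 on the log2 scale, which is at percentile 12.1 of all genes tested.

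The Timp2 probe sets disagreed in single mice. Of the 2 dimmest, the brighter one had 10.83, 9.60 and 9.66 at 18 months, against 9.95, 9.80 and 9.97 at 2 months. The dimmest had 10.49, 9.25 and 9.28 at 18 months, against 9.55, 9.41 and 9.65 at 2 months. In both, 18-month replicate 1 exceeded every other mouse, by 0.86 and 0.84. In the other 4 probe sets, 18-month replicate 1 deviated from the mean of the 6 mice by -0.06 to 0.12. The probe sets also disagreed in 18-month replicate 2. It was the highest mouse in the 2 brightest, at 0.15 and 0.17 above the mean of the 6 mice, and the lowest in the 3 dimmest, with deviations of -0.25, -0.37 and -0.35. Across the 6 probe sets the age difference ran from -0.18 to 0.17, with 5 above 0. The probe set next to the brightest, at 0.17 (SE 0.15), had separate ranges, from 11.83 to 11.98 at 18 months and from 11.60 to 11.79 at 2 months.

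Timp3, the inhibitor that is held in the matrix, was as steady. Its brightest probe set had log2 intensities of 11.33, 11.24 and 11.10 at 18 months, against 11.30, 11.28 and 10.98 at 2 months. The difference was 0.03 (SE 0.18, interval -0.39 to 0.45, limma adjusted p = 0.979), or 0.764-fold to 1.37-fold. Of the other 3 probe sets, the brighter of the lower pair had 10.17, 9.99 and 10.12 at 18 months, against 10.30, 11.19 and 10.01 at 2 months. Its difference of -0.41 (SE 0.32) came with 2-month replicate 2 lying 0.89 above every other mouse. In the remaining Timp3 probe sets that mouse deviated from the mean of the 6 mice by -0.17 to 0.08.

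**Figure D3:**
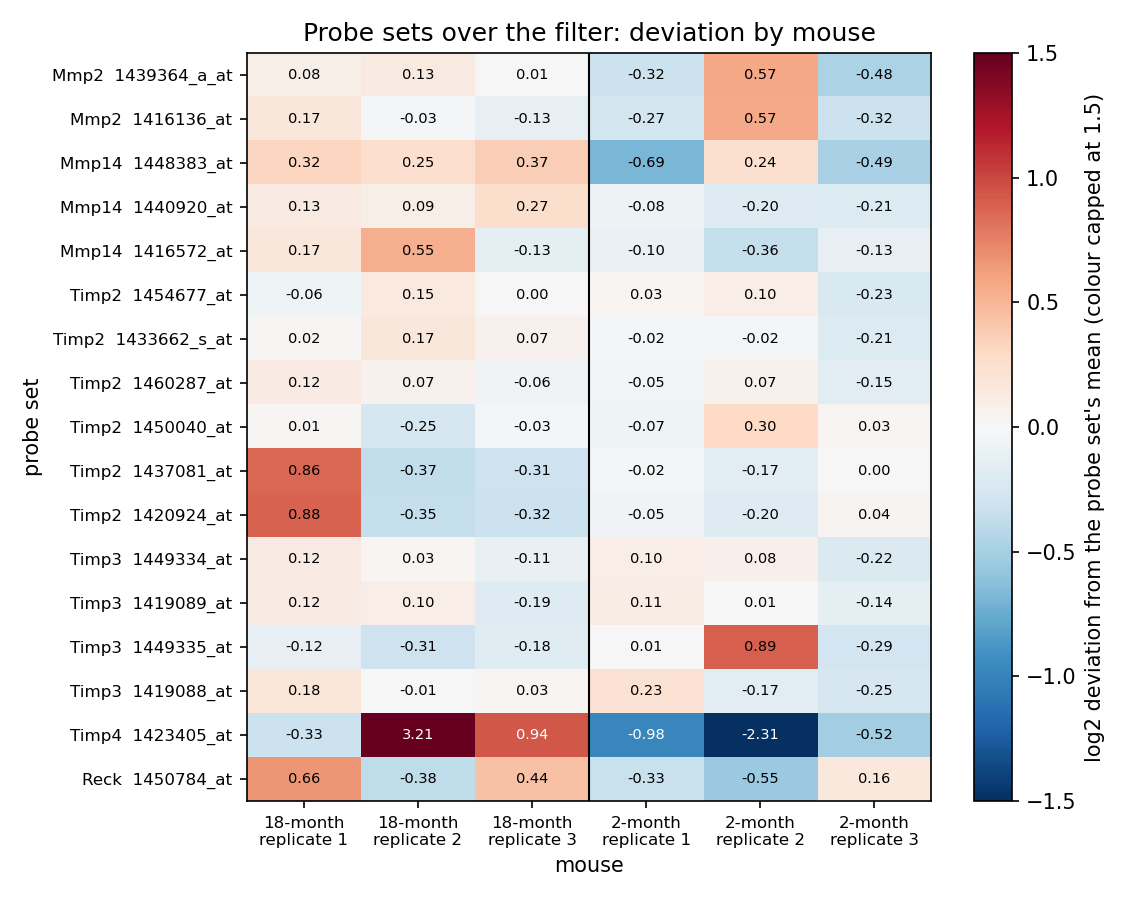
Deviation of each mouse (x axis) from the mean of the 6 mice on the log2 scale, for the 17 probe sets over the filter (y axis); red is above and blue below the mean, with colours capped at 1.5 and values printed. Single mice stand out in 2 Timp2 probe sets (18-month replicate 1) and in 1 Timp3 probe set (2-month replicate 2), while the Timp4 probe set spans -2.31 to 3.21.

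Timp4, an inhibitor known from heart, brain and blood vessels, had the largest measured difference of the members. Its brighter probe set had log2 intensities of 5.73, 9.26 and 6.99 in the 18-month mice, against 5.08, 3.74 and 5.53 in the 2-month mice. The ranges were separate, but the lowest 18-month mouse lay 0.20 above the highest 2-month mouse, and the 18-month mice themselves spanned 3.53. The mean was 7.33 ± 1.79 at 18 months and 4.78 ± 0.93 at 2 months (SD, n = 3 each), so the ages differed by 2.54 on the log2 scale, or 5.83-fold (SE 0.92, interval 0.35 to 4.74). The unadjusted p was 0.0293 and the limma adjusted p was 0.682. The within-age spread of 1.43 lay at percentile 99.3 of all genes tested.

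The 2-month mean of Timp4 lay under the filter. With values below the highest bacterial control set to it, the difference was 2.29 or 4.89-fold. Without 18-month replicate 2 it was 1.58, and the unadjusted p was then 0.0525. The second Timp4 probe set was dim and gave a difference of 0.09 (SE 0.28). It read 5.27, 4.29 and 4.71 at 18 months, against 4.56, 4.55 and 4.89 at 2 months. In it 18-month replicate 2, the highest mouse of the brighter probe set, was the lowest. With the mean of both probe sets the difference was 1.32 (limma adjusted p = 0.543).

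Timp4 is also made by cells of the brain. The mean log2 intensity of 9 astrocyte markers was 8.44, 8.58 and 9.10 at 18 months, against 8.45, 8.04 and 8.83 at 2 months. For 11 oligodendrocyte markers it was 7.41, 8.20 and 8.80 at 18 months, against 7.68, 6.61 and 8.34 at 2 months. For both lists and for Timp4, 2-month replicate 2 was the lowest mouse. Both lists were highest in 18-month replicate 3, and Timp4 in 18-month replicate 2. The part of these cells in the Timp4 values was not tested. The genes closest to the brighter Timp4 probe set over the 6 mice were Ppm1g (Pearson r = 0.996), Vps39 (0.979) and Acvr1b (0.972). They were picked from all genes tested, of which 20 had an r over 0.95, and these r are a description.

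Timp1, the inducible inhibitor of reactive tissue, was under the filter. Its only probe set had 5.37, 4.02 and 4.61 at 18 months, against 4.07, 4.64 and 4.52 at 2 months. The highest value belonged to 18-month replicate 1 and the lowest to 18-month replicate 2, so the ages overlapped.

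Reck encodes a membrane-anchored glycoprotein that restrains several metalloproteinases, MMP2, MMP9 and MMP14 among them. It had log2 intensities of 8.65, 7.62 and 8.43 at 18 months, against 7.66, 7.44 and 8.15 at 2 months. The ages overlapped through 18-month replicate 2. The mean was 8.23 ± 0.55 at 18 months and 7.75 ± 0.36 at 2 months (SD, n = 3 each), and the ages differed by 0.48 (SE 0.33, interval -0.30 to 1.27, limma adjusted p = 0.816). Without 18-month replicate 2 the difference was 0.79. Over 12 macrophage markers the mean log2 intensity was 8.05, 7.42 and 8.10 at 18 months, against 7.46, 7.23 and 7.66 at 2 months, and the summed linear intensity was 5759, 4048 and 5497 at 18 months, against 3253, 3737 and 5182 at 2 months. By either measure the 3 highest mice were those highest in Reck, and by the mean log2 intensity 18-month replicate 3 was above 18-month replicate 1. The macrophage markers did not move together. Of the 12, 9 had a difference above 0 and 3 below, and 2 had separate, higher ranges at 18 months and 1 a separate, lower range. Of the marker lists this one had the highest Pearson r with Reck (0.969), which is a description. The part of macrophages in the Reck values was not tested.

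The balance of an enzyme and its inhibitor was followed within each array for 5 pairs. Only the change of such a log2 difference between ages has meaning, because probe sets differ in brightness. Mmp14 minus Timp2 was -3.73 ± 0.16 at 18 months and -4.30 ± 0.43 at 2 months (SD, n = 3 each), a change of 0.57 (exact permutation p = 0.2, two-sided; adjusted over the 5 pairs, exact permutation p = 0.5). Mmp2 minus Timp2 changed by 0.09 and Mmp14 minus Reck by 0.15. The adjusted exact permutation p of both was 0.8, and 3 mice against 3 allow no p below 0.1. In the other pairs Mmp9, Timp1 and Mmp16 lay under the filter and close to the highest bacterial control. The changes of Mmp9 minus Timp1 (-0.41) and Mmp16 minus Timp3 (-0.51) therefore hold dim values, and nothing is read from these changes. Leaving out 1 mouse moved them between -0.66 and -0.11 and between -1.07 and -0.017.

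Among the other matrix metalloproteinases, 14 of 18 had a probe set and 4 passed the filter. Mmp23, a transmembrane enzyme, differed by 0.79 (SE 0.51) and Mmp11, the stromelysin of remodelling stroma, by 0.44 (SE 0.44). Mmp24, a membrane-type enzyme of the nervous system, differed by 0.32 (SE 0.22) and Mmp17, which is held by a lipid anchor, by 0.14 (SE 0.39). None passed (limma adjusted p from 0.802 to 0.957). Mmp23 was 0.35 without 2-month replicate 3 and 1.21 without 2-month replicate 2, Mmp11 was 0.11 without 2-month replicate 2 and 0.82 without 18-month replicate 2, and Mmp24 was 0.010 with its probe sets averaged. The list's median was 0.38 over these 4 genes. The other 10 with a probe set, which include the stromelysin gene Mmp3 and the macrophage elastase gene Mmp12, had means under the filter.

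**Figure D4:**
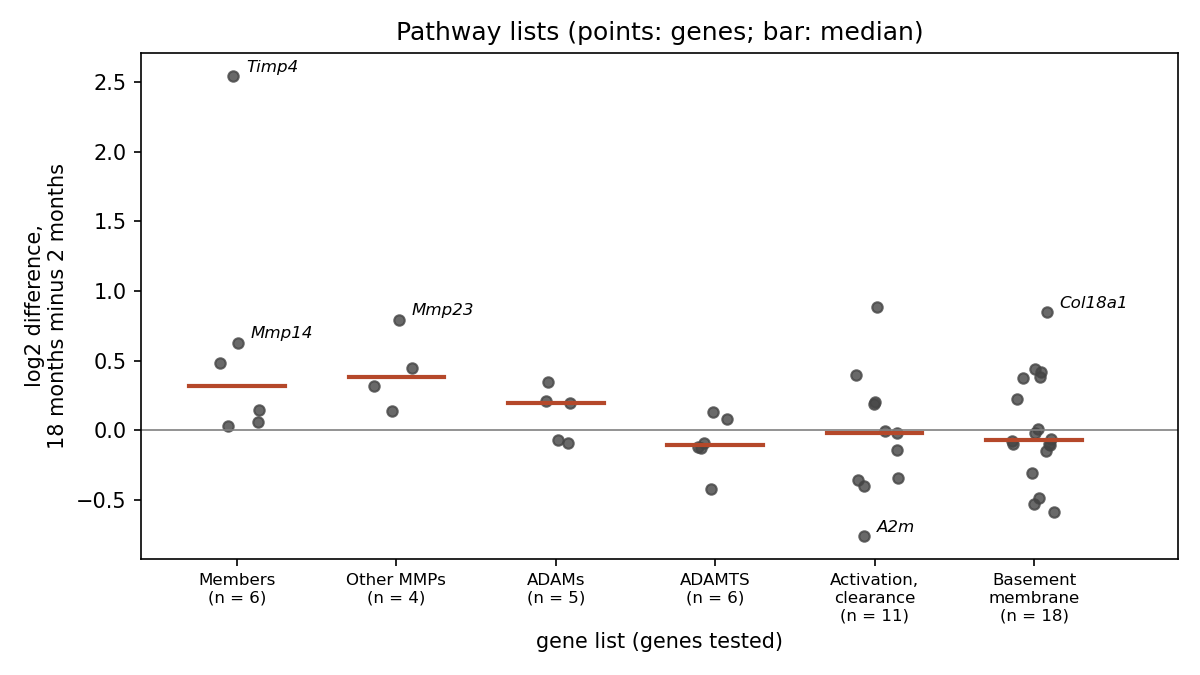
Log2 difference between ages (y axis, 18 months minus 2 months) of each tested gene in the metalloproteinase list and in 5 related lists (x axis, with the number tested); points are genes and bars medians. Medians of the related lists run from -0.11 to 0.38, and Timp4 at 2.54 lies above every other point.

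Related proteases showed the same absence of calls. Of 9 ADAM genes, 5 were tested, with a median of 0.19. The sheddase gene Adam17 gave a difference of 0.34 (SE 0.48). Its values were 8.82, 10.59 and 8.90 at 18 months, against 9.23, 9.17 and 8.87 at 2 months, and 18-month replicate 2 alone was high. Without that mouse its difference was -0.23. Its relative Adam10 differed by -0.09 (SE 0.20), Adam9 by 0.21 (SE 0.25) and Adam28 by 0.19 (SE 0.20). The ADAMTS family, secreted enzymes that cut proteoglycans and procollagens, had 6 of 19 genes tested and a median of -0.11. Within it Adamts1 differed by 0.13 (SE 0.19) and Adamts15 by -0.42 (SE 0.40), while Adamts16 and Adamts10 gave -0.13 and -0.12. Adamts15 averaged 4.73 ± 0.48 at 18 months, under the filter, and 5.15 ± 0.68 at 2 months (SD, n = 3 each). It was tested only through its higher 2-month mean.

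Of 19 genes that activate, inhibit or clear metalloproteinases, 11 were tested, with a median of -0.02, 4 above and 7 below 0. A2m, which encodes a broad protease trap, had log2 intensities of 8.74, 8.82 and 8.73 at 18 months, against 9.49, 9.54 and 9.54 at 2 months. The mice of each age lay close together and the ages were 0.67 apart at their nearest. The difference was -0.76 (SE 0.15, unadjusted p = 0.00169, limma adjusted p = 0.369), and over the alternatives it ran from -0.79 to -0.74. The proprotein convertase genes Pcsk6 and Pcsk5 differed by -0.40 (SE 0.21) and 0.89 (SE 0.64), and Thbs2, a matricellular protein that helps remove MMP2, by 0.39 (SE 0.29). Pcsk6 had a separate, lower range at 18 months, by a margin of 0.06, and the ranges of Pcsk5 and Thbs2 overlapped. Pcsk5 moved to 0.14 without 2-month replicate 1 and to 1.46 without 2-month replicate 3.

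Basement membrane genes, whose products are substrates, had 18 of 20 tested, 7 above and 11 below 0, with a median of -0.07. Col18a1, the source of endostatin, had 9.38, 9.21 and 9.47 at 18 months, against 8.22, 8.91 and 8.38 at 2 months, a difference of 0.85 (SE 0.23, limma adjusted p = 0.568). The laminin gene Lamb1 had 10.05, 10.19 and 9.76 at 18 months, against 10.74, 10.42 and 10.43 at 2 months, a difference of -0.53 (SE 0.19, limma adjusted p = 0.682). Both had separate ranges. Lama4 differed by 0.38 (SE 0.16), with separate ranges, and the agrin gene Agrn by 0.38 (SE 0.19), with overlapping ranges. Neither passed. Lama4 averaged 5.11 ± 0.11 at 18 months and 4.74 ± 0.05 at 2 months (SD, n = 3 each), and it reached the filter only through the 18-month mice. With the probe sets of each gene averaged, Agrn gave 0.0013, Lamb1 -0.26 and Col18a1 0.88.

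The tissue and its neighbours were checked by marker lists. Of 12 plexus epithelium markers 10 were tested, and their mean log2 intensity was 12.43 to 12.52 at 18 months and 12.38 to 12.53 at 2 months. Their summed linear intensity was 65945 to 67191 at 18 months and 66337 to 71043 at 2 months. Ttr and the potassium channel subunit gene Kcne2 had separate, lower ranges at 18 months, with differences of -0.17 and -0.31. Aqp1 had a separate, higher range at 18 months, with a difference of 0.64 (SE 0.24, limma adjusted p = 0.682). Fibroblast markers, from the cells that make much of the MMP2 and MMP14 in many tissues, had 9 of 10 tested and a median difference of -0.48. Their summed linear intensity was 2432 to 3194 at 18 months and 3127 to 3796 at 2 months, while their mean log2 intensity was 7.17 to 7.71 at 18 months and 7.36 to 7.54 at 2 months. Pdgfra, a receptor of fibroblasts and of oligodendrocyte precursors, had the smallest p of the list and a difference of 1.95 (SE 0.22, limma adjusted p = 0.118), with separate ranges. Most of the list went the other way, with 3 markers above and 6 below 0. Ogn, Dcn and Col1a2 had separate, lower ranges at 18 months, with differences of -0.80 (SE 0.27), -0.72 (SE 0.25) and -0.48 (SE 0.24). For 4 of 10 neutrophil markers tested the sum was 1055 to 2752 at 18 months and 543 to 912 at 2 months, and for 7 of 10 endothelial markers 717 to 1074 and 778 to 1019. Of the pericyte markers 6 of 10 were tested, with sums of 443 to 908 at 18 months and 542 to 585 at 2 months. Ependymal markers, 9 of 10 tested, summed to 7265 to 8642 at 18 months and 9021 to 13143 at 2 months. The dim defining markers under the filter included Tek, Tie1, Cd163 and Adgre1. Their part in the metalloproteinase values was not tested. Genes whose pattern came closest to Mmp14 were Htra3 (r = 0.993), which encodes a secreted serine protease, Sil1 (0.991) and Cd83 (0.988). Of all genes tested, 34 had an r over 0.95 with Mmp14, over 6 mice on arrays that share the normalization.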

How the data were processed

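RNA of 6 plexus samples was measured on Affymetrix arrays of 45037 non-control probe sets. Per the labels' protocols it was extracted with the miRNeasy kit and amplified with a Nugen Pico kit. The deposited intensities were made with RMA, per the submitters' processing notes, and ran from 2.47 to 26820.7, a linear scale. Their log2 was taken. The RMA version is not given in the sources used here. Arrays had median log2 values from 5.56 to 5.65. Precision is limited by there being 6 arrays.

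Of the probe sets, 34945 carried 1 gene symbol, 932 several and 9160 none. Of the single symbols, 34741 matched the RefSeq gene table (GRCm38.p6) by gene ID and 0 changed. The brightest probe set stood for a gene. Ages were compared with limma 3.58.1 in R 4.3.3 (moderated linear models, two-sided, 6.61 degrees of freedom), each difference being the 18-month mean minus the 2-month mean, with Benjamini-Hochberg adjustment over 12681 genes and a threshold of 0.05. Errors of single probe sets come from a limma fit over all probe sets. The limma script and the exact tests were first tested on simulated data.

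The members, gene lists, marker lists and alternatives were chosen with earlier results of these data known. The text names all members, up to 4 genes of each pathway list by smallest p, and the 3 genes closest by Pearson r to each of the 2 members with the smallest p. S100a8, S100a9, Ngp, Camp, Pdgfra, Ogn, Dcn, Col1a2, Kcne2, Aqp1, Mmp3, Mmp12 and the untested markers were named outside that rule. Likewise Timp2 was chosen for its promoter after its values were seen.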

Additional observations from a re-analysis of the deposited data

How the results depend on the processing

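Under the 18 alternatives 0 members passed the threshold in either direction. Over all genes, the counts of genes higher and lower were 3 and 1 with a 60th percentile filter, 4 and 1 with arrays centred on their median, 3 and 1 with array weights, 5 and 0 when probe sets of a gene were averaged, 2 and 0 with a variance trend, 1 and 0 with the neuron covariate, and 0 and 1 with every probe set tested by itself. Members at an unadjusted p under 0.05 numbered 2 with no filter, with averaged probe sets or with array weights, and 0 with the replicate block or the ordinary 2-sample test. Leaving out 1 mouse gave 0 to 2. The share of all genes at that level was taken only for the main fit (7.05%) and for all probe sets (5.68%). Nothing is therefore read from the member counts under the other settings. The replicate numbers did not pair the mice (deviations of same-numbered mice correlated at -0.015, 0.019 and 0.17). The replicate block gave 0 members and 0 genes past the threshold, with an adjusted p of 0.703 for Timp4 and 0.705 for Mmp14. Timp4 ranged from 1.32 to 3.34 and Mmp14 from 0.44 to 0.90. Timp4 gave no value under the 60th percentile filter. Without 2-month replicate 3 the signs turned for Mmp2 (-0.054), Timp2 (-0.036), Timp3 (-0.071), Adam9 (-0.029) and Adamts10 (0.12), and for the pairs Mmp2 minus Timp2 (-0.018) and Mmp14 minus Reck (-0.14). Without 2-month replicate 1 they turned for Mmp17 (-0.088) and Mmp2 minus Timp2 (-0.069), and without 2-month replicate 2 for Adamts16 (0.012). Without 18-month replicate 1 Timp3 gave -0.022. Without 18-month replicate 2, Mmp17 gave -0.20, Adam17 -0.23, Adam10 0.061, Adamts16 0.050 and Mmp14 minus Reck -0.13. With averaged probe sets, Timp3 gave -0.058, Adam17 -0.070, Adam10 0.24, Mmp14 minus Reck -0.037 and Mmp16 minus Timp3 0.032, while Agrn and Mmp24 kept their sign at 0.0013 and 0.010. With 18-month replicate 3 and 2-month replicate 2 both left out, Mmp11 gave -0.22 and Adamts15 0.0079. The causes were not tested. Leaving out 1 mouse gave at most 0.34 for Mmp2 minus Timp2, 0.58 for Mmp14 minus Reck, 0.47 for Mmp2, 0.13 for Timp2, 0.093 for Timp3, 0.45 for Mmp17, 0.34 for Adam9 and 0.65 for Adam17, and at least -0.24 for Adam10, -0.26 for Adamts16 and -0.35 for Adamts10. The floor for Timp4 was chosen after seeing the data. Values under the filter, close to the highest bacterial control, limit Mmp9, Mmp16 and Timp1.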
